A study of Homo sapiens with 4 samples.

Results

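The genes described here are 39 genes of the endoplasmic reticulum (ER) protein folding and degradation system, chosen by name from the 40205 genes listed in each RNA-seq library. They comprise 4 stress sensors and their transcription factors, 12 chaperones and co-chaperones, 6 disulfide exchange enzymes, 11 components of ER-associated degradation (ERAD), 3 extraction factors and 3 translocon subunits. All 39 were found in the files, with *ERO1B* listed as *ERO1LB*.

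RNA was measured in lung adenocarcinoma cells transfected for 24 h with a negative control siRNA (NC 1 and NC 2) or with an siRNA against circZFR (si-circZFR 1 and si-circZFR 2), a circular RNA back-spliced from *ZFR* exons. All 4 libraries came from 1 cell line, and 1 circZFR siRNA is listed for the experiment. The sample labels name the line H1299, whereas the study design names A549. Whether the replicates were separate cultures is not stated, so the p-values measure only the spread between these libraries.

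The ER folds secreted and membrane proteins with the help of chaperones such as BiP and of disulfide isomerases. When unfolded proteins build up, the sensors IRE1, ATF6 and PERK start the unfolded protein response, in which ATF6 and the spliced form of XBP1 raise the transcription of chaperones and ERAD genes. In ERAD, misfolded proteins are trimmed and recognised in the lumen, ubiquitinated by membrane ligases such as SYVN1 and RNF5, and pulled into the cytosol by VCP for the proteasome. Lung epithelial cells use this machinery for the surfactant, mucus and membrane proteins that they make.

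The libraries held 11040050 to 12816868 reads, recovered from the deposited RPKM values (reads per kilobase of gene length, corrected for depth). Levels below are scaled RPKM, that is, RPKM corrected for differences in library composition, and log2FC is the difference si-circZFR minus NC of log2(scaled RPKM + 1), which understates the change of low genes. *ZFR*, whose gene-level value does not separate the linear RNA from the circle, was 28.9 ± 4.16 (SD, n = 2) in NC and 4.94 ± 0.445 in si-circZFR (log2FC -2.33, adjusted p = 0.0388). It had 1437 and 1740 reads in NC and 284 and 267 in si-circZFR. The study, by RT-PCR, reported that the siRNA lowered circZFR with no detectable effect on *ZFR*. The part of linear *ZFR* in this drop was not tested, so the differences below cannot be assigned to the circle alone. All 9 A549 markers examined were detected in every library, as were 2 of 3 H1299 markers (*VIM* at 527.6 to 664.9 and *CDH2* at 7.10 to 7.65). The third, *CDKN2A*, which A549 cells have lost, was listed at 0 in all 4 libraries. Of 3 leukocyte markers, *PTPRC* and *CD3E* were also listed at 0 and *CD68* lay between 55.1 and 81.1. The summed level of 3 fibroblast markers ranged from 0.687 to 0.968 in NC and from 1.39 to 2.02 in si-circZFR. Most of it was *COL1A1* (0.877 and 0.612 in NC, 1.34 and 1.89 in si-circZFR). *PDGFRB* went the other way (0.0746 and 0.0756 in NC, 0.0458 and 0.0572 in si-circZFR). *COL3A1* had 1 and 0 reads in NC and 0 and 5 in si-circZFR. The part of these genes in the results was not tested.

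Of the 39 ER genes, 38 passed the filter on low values (2 or more libraries with an RPKM of 1 or more). The remaining gene, *DERL3*, a derlin of secretory tissues, had 0 reads in both NC libraries and 4 and 7 reads in the si-circZFR libraries. A level of 0 in NC allows up to 3 reads per library, or 0.0784 RPKM in NC 1 and 0.0731 in NC 2, counting error only. None of the 38 genes passed the call used for all genes (limma, two-sided, adjusted p under 0.05 and |log2FC| over 1), and 0.0576% of all 13885 genes tested did. The smallest adjusted p among them was 0.0637. Limma-voom on the recovered reads called 2 of the 38, *RNF5* and *EDEM3*, and 304 of all 13885 genes tested.

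At an unadjusted p under 0.05, 2 ER genes were lower and 7 were higher in si-circZFR. The corresponding shares of all genes tested were 11.5% lower and 10.1% higher, against 18.4% of the ER genes on the higher side. In 17 of the 38 (44.7%), both si-circZFR libraries lay above both NC libraries, and in 5 (13.2%) both lay below, whereas 28.1% of all genes did so in each direction. The median log2FC of the 38 was 0.17, with 24 positive and 14 negative values, and that of all genes tested was 0.01. With 2 libraries against 2, an exact permutation test of a single gene cannot give a p below 0.333, so no such p is given.

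Reads on the 39 genes made up 0.664% of NC 1, 0.654% of NC 2, 0.756% of si-circZFR 1 and 0.933% of si-circZFR 2. Their share of the library was thus larger in both si-circZFR libraries, with the widest step between the si-circZFR replicates themselves. These shares are not corrected for library composition. The factors by which RPKM values were divided in that correction were 0.981 and 0.904 in NC and 1.017 and 1.109 in si-circZFR. Part of the larger share is thus common to many genes. Of the 38 genes, 20 had their highest level in si-circZFR 2, 7 in si-circZFR 1, 8 in NC 2 and 3 in NC 1. Levels spanned a wide range in NC, from 2.68 for *ERO1B*, an oxidase that recharges disulfide isomerases, to 463.2 for *P4HB*, the abundant protein disulfide isomerase, with a median of 23.9.

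**Figure D1:**
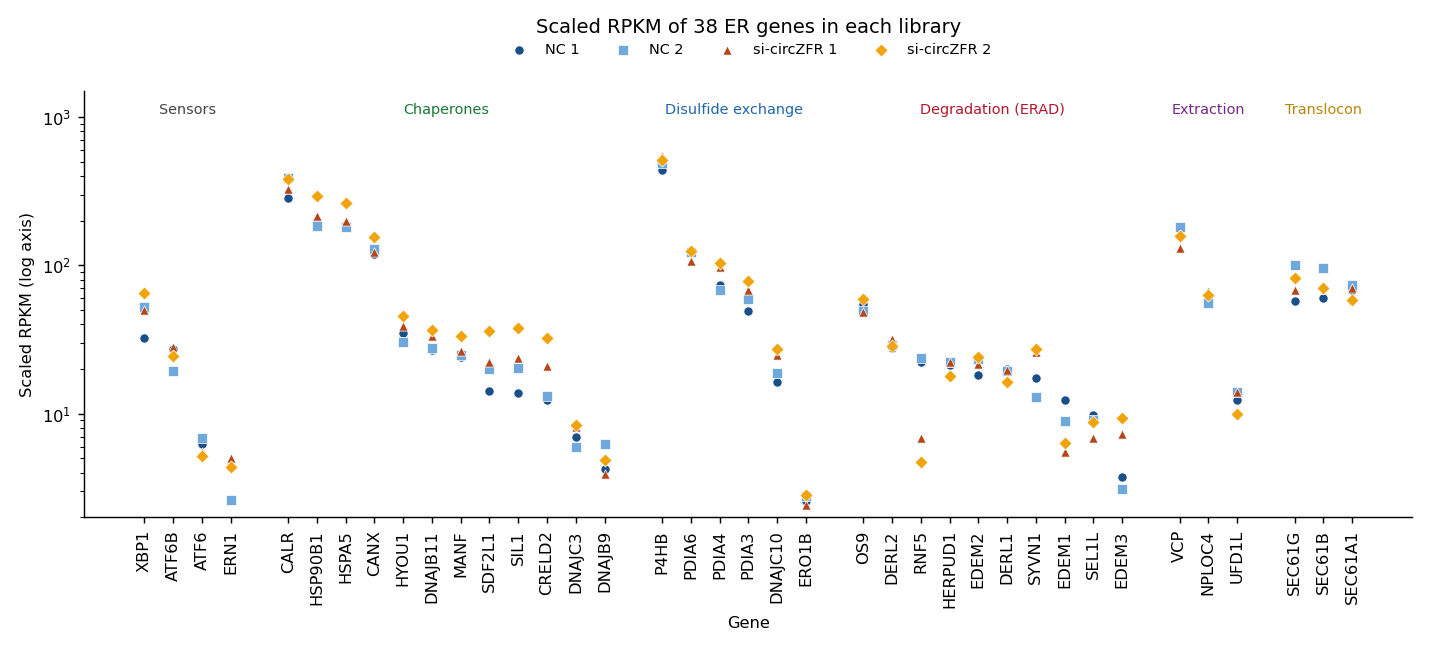
Scaled RPKM on a log axis (vertical) of the 38 ER genes tested (horizontal), grouped by role and ordered within a role by the NC mean, with 1 point per library. *RNF5* is the gene whose si-circZFR points lie farthest below its NC points (4.74 and 6.91 against 22.2 and 23.7), and *EDEM3* shows the widest separation in the other direction.

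Among the sensors, the differences were small and went both ways, and the median log2FC of 0.28 dropped to 0.02 without NC 2. *XBP1*, the transcription factor activated by IRE1, had levels of 32.2 (NC 1), 52.6 (NC 2), 50.2 (si-circZFR 1) and 65.5 (si-circZFR 2); below, the replicates of a group are given in this order. Its groups overlapped, because NC 2 exceeded si-circZFR 1 (log2FC 0.47, SE 0.28, adjusted p = 0.369), and the log2FC was 0.12 without NC 1 and 0.81 without NC 2. The values are per gene and do not separate spliced from unspliced *XBP1*.

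*ERN1*, which encodes IRE1, was at 4.38 and 2.61 in NC and 5.02 and 4.39 in si-circZFR. Both si-circZFR values lay above both NC values, but si-circZFR 2 and NC 1 were separated by little (log2FC 0.37, SE 0.24, adjusted p = 0.401), and the log2FC was 0.08 without NC 2 and 0.66 without NC 1. *ATF6*, the membrane-bound factor cleaved in the Golgi during stress, was at 6.25 and 6.89 in NC and 5.50 and 5.16 in si-circZFR. It was the only sensor lower in both si-circZFR libraries (log2FC -0.26, SE 0.16, adjusted p = 0.386). Its paralog *ATF6B* was at 27.2 and 19.4 in NC and 28.3 and 24.6 in si-circZFR. The groups overlapped (log2FC 0.19, SE 0.21, adjusted p = 0.623), and the difference changed sign without NC 2 (log2FC -0.05).

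The chaperones leaned to higher levels. Of the 12, 11 had a positive log2FC, and their median log2FC was 0.33. Both si-circZFR libraries lay above both NC libraries in 9 (75%, against 28.1% of all genes tested). In 0 of the 12 both lay below (28.1% of all genes tested). None passed the test, and 3 (*CRELD2*, *SIL1* and *SDF2L1*) had an unadjusted p under 0.05. Their summed level was 918.9 and 1030 in NC and 1041 and 1328 in si-circZFR, so that NC 2 and si-circZFR 1 differed by little and most of the separation came from si-circZFR 2.

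*HSPA5*, which encodes BiP, the central ER chaperone and a standard readout of ER stress, was at 181.5 and 181.4 in NC and at 197.8 and 263.0 in si-circZFR. Both si-circZFR libraries were above the nearly equal NC libraries, but they differed from each other by more than si-circZFR 1 differed from NC (log2FC 0.33, SE 0.22, adjusted p = 0.430). *HSP90B1*, the ER form of HSP90, was at 198.1 and 183.2 in NC and at 216.5 and 291.7 in si-circZFR (log2FC 0.40, adjusted p = 0.362).

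*CRELD2*, a folding factor known as an ER stress-inducible gene, was at 12.4 and 13.2 in NC and at 20.9 and 32.4 in si-circZFR. Its groups were apart, with a mean of 12.8 ± 0.539 (SD, n = 2) in NC and 26.7 ± 8.11 in si-circZFR (log2FC 0.97, SE 0.23, 95% interval 0.40 to 1.54, adjusted p = 0.115). The si-circZFR libraries differed from each other by more than si-circZFR 1 differed from NC, and the log2FC was 0.68 without si-circZFR 2. *SIL1*, the nucleotide exchange factor of BiP, was at 13.7 and 20.3 in NC and at 23.8 and 38.1 in si-circZFR. The gap between the groups was narrower than the gap within either group (log2FC 0.81, SE 0.29, adjusted p = 0.191). *SDF2L1*, a component of the ER chaperone complex, was at 14.1 and 20.1 in NC and at 22.4 and 36.1 in si-circZFR. It showed the same arrangement of the 4 libraries as *SIL1* (log2FC 0.72, SE 0.28, adjusted p = 0.219).

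The other chaperones lay closer to 0. *HYOU1*, *DNAJB11*, *DNAJC3* and *MANF* had log2FC values from 0.27 to 0.37 with the groups apart. The lectin chaperones of glycoprotein folding, *CALR* (0.09) and *CANX* (0.17), overlapped between the groups. *DNAJB9*, a BiP co-chaperone that is a standard target of spliced XBP1, was the only chaperone with a negative log2FC (-0.20), with levels of 4.27 and 6.29 in NC and 3.92 and 4.89 in si-circZFR.

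The disulfide exchange enzymes had a median log2FC of 0.31, with 4 of 6 positive. In those 4 the groups were apart (66.7%, against 28.1% of all genes tested on the higher side). *DNAJC10*, a reductase that opens disulfides of ERAD substrates, was at 16.4 and 18.7 in NC and at 24.7 and 27.1 in si-circZFR. *PDIA4*, an isomerase with several thioredoxin domains, was at 73.4 and 68.3 in NC and at 97.5 and 103.6 in si-circZFR. In both genes the replicates of a group were closer to each other than to the other group (*DNAJC10* log2FC 0.54, SE 0.16, adjusted p = 0.152; *PDIA4* log2FC 0.50, SE 0.17, adjusted p = 0.178). *PDIA3*, the isomerase that works with the lectin chaperones, had a log2FC of 0.43, and its separately listed copy *PDIA3P*, with which reads may be shared, had 0.55. *P4HB* had a log2FC of 0.20, and *PDIA6* (-0.10) and *ERO1B* (-0.03) overlapped between the groups.

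Many chaperone genes of this pathway carry the ER stress response element (ERSE) in their promoters, which NF-Y and ATF6 bind as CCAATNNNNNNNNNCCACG. RefSeq promoter sequences (GRCh38.p14, 250 bases before to 50 bases after the gene start) were matched for 35 of the 39 genes, and were searched on both strands. *PDIA3*, *DERL1*, *DERL3* and *UFD1L* were not matched. The element was found in 27 of 35116 promoters (0.077%) and in 7 of the 35, namely *XBP1*, *HSPA5*, *HSP90B1*, *CALR*, *CANX*, *CRELD2* and *ERO1B*. ERSE-II, which reads ATTGG, any 1 base and CCACG, was found in 19 promoters (0.054%) and in 3 of the 35, namely *HYOU1*, *SDF2L1* and *HERPUD1*. The core of the UPR element bound by spliced XBP1, TGACGTG, was found in 1.971% of promoters and in *HYOU1*, *DNAJC10* and *VCP*. In *HYOU1*, 1 ERSE-II copy overlapped this core on the other strand. The elements of 5 genes are printed here because they span those with groups apart (*HSPA5*, *CRELD2*, *SDF2L1*) and those overlapping (*XBP1*, *HERPUD1*), with the fixed letters of the motif in capitals and 5 bases on each side, written 5′ to 3′ in the direction of the motif.
XBP1: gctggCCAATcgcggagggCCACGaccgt
HSPA5: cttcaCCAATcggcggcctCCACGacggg
CRELD2: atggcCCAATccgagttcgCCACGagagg
SDF2L1: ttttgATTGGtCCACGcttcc
HERPUD1: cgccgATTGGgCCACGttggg

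These stretches lie on GRCh38.p14 at chr22:28800598-28800626 (minus strand) for *XBP1*, chr9:125241386-125241414 (minus) for *HSPA5*, chr22:49918549-49918577 (minus) for *CRELD2*, chr22:21642109-21642129 (minus) for *SDF2L1* and chr16:56932020-56932040 (plus) for *HERPUD1*, all before the RefSeq gene start. The 10 genes with ERSE or ERSE-II had a median log2FC of 0.35 (-0.12 to 0.97), 8 of them positive and 5 with both si-circZFR libraries higher. The 25 genes with a promoter but neither element had a median of 0.15 (-1.83 to 1.06), 15 positive and 11 with both si-circZFR libraries higher. Of all genes tested, 28.1% had both si-circZFR libraries higher. The genes carrying an element thus ranged from *HERPUD1*, whose groups overlapped, to *CRELD2*. A match in the letters is a description of the sequence and was not tested for binding.

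The ERAD genes held the largest differences of the 38 in both directions. Of the 10 tested, 5 had positive and 5 negative log2FC values with a median of -0.04. *RNF5*, a membrane-anchored ubiquitin ligase that acts early on misfolded membrane proteins, was at 22.2 and 23.7 in NC and at 6.91 and 4.74 in si-circZFR, from 296, 312, 90 and 66 reads. Both si-circZFR libraries were far below NC, with a mean of 22.9 ± 1.06 (SD, n = 2) against 5.82 ± 1.53, a level 74.6% lower (log2FC -1.83, SE 0.20, 95% interval -2.33 to -1.33). Its unadjusted limma p was 0.000119 and its adjusted p 0.0637, over the threshold. The adjusted p was under 0.05 in 6 of 16 alternative settings and ranged from 0.0128 to 0.314 over them.

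*RNF5* lies on chromosome 6 (GRCh38, chr6:32178405-32180793, plus strand) and has a near-identical processed copy, *RNF5P1*, which is listed separately. The copy was at 6.52 and 10.1 in NC and at 1.77 and 2.79 in si-circZFR (log2FC -1.50, SE 0.26, adjusted p = 0.082). How reads common to the pair were assigned is not stated, so the split between them is uncertain, but both entries were lower in both si-circZFR libraries.

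The EDEM lectins, which mark misfolded glycoproteins for degradation by trimming mannose, went in opposite directions. *EDEM3* was at 3.77 and 3.13 in NC and at 7.28 and 9.40 in si-circZFR. Both si-circZFR libraries were higher, with a mean of 3.45 ± 0.453 (SD, n = 2) against 8.34 ± 1.50 (log2FC 1.06, SE 0.19, 95% interval 0.59 to 1.53, adjusted p = 0.082), and its adjusted p was under 0.05 in 4 of the 16 alternative settings (range 0.0252 to 0.509). *EDEM1* was at 12.3 and 8.97 in NC and at 5.54 and 6.34 in si-circZFR.

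Both si-circZFR values of *EDEM1* were lower (log2FC -0.73, SE 0.20, 95% interval -1.22 to -0.24, adjusted p = 0.133). The ratio of *EDEM3* to *EDEM1* within a library, a comparison chosen after the values were seen and independent of the scaling between libraries, was 0.306 and 0.349 in NC and 1.31 and 1.48 in si-circZFR. *EDEM1* was thus the higher of the pair in NC and *EDEM3* in si-circZFR. *EDEM2*, which starts the trimming, had a log2FC of 0.15 with overlapping groups.

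The ubiquitin ligase *SYVN1*, the catalytic core of the main ERAD complex, and its partner *SEL1L* also separated. *SYVN1* was at 17.5 and 12.9 in NC and at 26.2 and 27.5 in si-circZFR, and the groups were apart (log2FC 0.80, SE 0.19, 95% interval 0.33 to 1.26, adjusted p = 0.115, 0.0369 to 0.597 over the alternatives). *SEL1L*, the adaptor that stabilises the ligase, was at 9.82 and 9.11 in NC and at 6.88 and 8.78 in si-circZFR, with si-circZFR 2 only slightly below NC 2 (log2FC -0.25, adjusted p = 0.438). The ratio of *SYVN1* to *SEL1L*, also chosen after the values were seen, was 1.78 and 1.42 in NC and 3.81 and 3.13 in si-circZFR. Between the ligases, *SYVN1* to *RNF5* was 0.787 and 0.546 in NC and 3.79 and 5.80 in si-circZFR, so that *RNF5* was the higher ligase in both NC libraries and *SYVN1* in both si-circZFR libraries. The membrane scaffold *HERPUD1*, a strongly stress-inducible gene, the derlins *DERL1* and *DERL2* and the lectin *OS9* had log2FC values from -0.12 to 0.09 with overlapping groups.

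**Figure D2:**
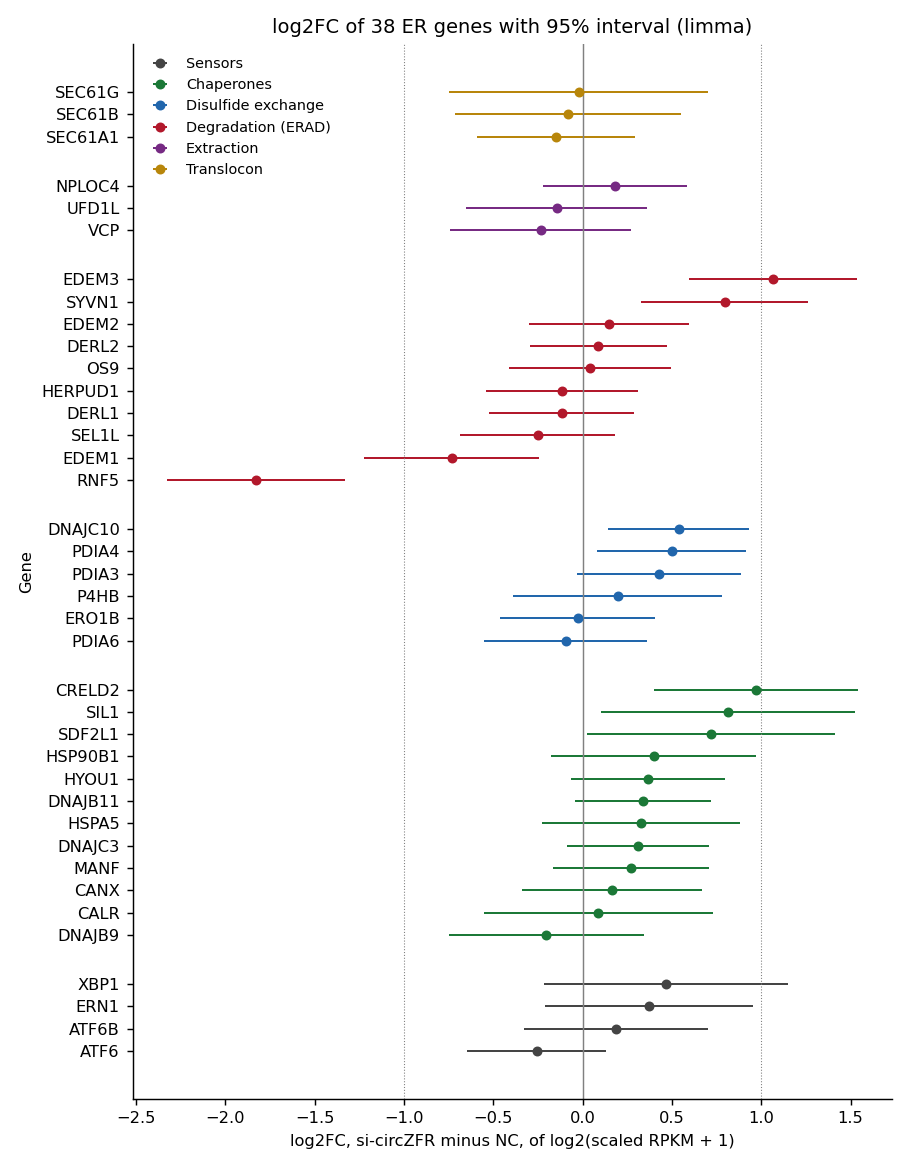
log2FC, si-circZFR minus NC (horizontal), of the 38 ER genes tested (vertical) with the 95% interval from limma, coloured by role, with dotted lines at the |log2FC| of 1 used in the call. The chaperones lie mostly to the right of 0, whereas the ERAD genes spread from *RNF5* at -1.83 to *EDEM3* at 1.06.

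The extraction factors and the translocon showed little separation. *VCP*, the ATPase that pulls substrates from the membrane, was at 158.9 and 181.8 in NC and at 131.1 and 158.8 in si-circZFR, so that NC 1 and si-circZFR 2 were almost equal (log2FC -0.23, SE 0.21, adjusted p = 0.534). Its cofactors *NPLOC4* and *UFD1L* had log2FC values of 0.18 and -0.14. The translocon subunits *SEC61A1*, *SEC61B* and *SEC61G*, the channel for entry into the ER, had log2FC values from -0.15 to -0.02, all with overlapping groups. The NC libraries themselves differed widely in *SEC61B* (59.9 and 96.2) and *SEC61G* (57.3 and 99.9), and the median of the translocon genes changed from -0.08 to -0.42 without NC 1, to 0.25 without NC 2 and to 0.34 with a correction for gene length. With scaling by library size alone it was 0.09, beside a median of all genes of 0.15.

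The 3′UTRs of the genes were searched for the 7-mer CTGACTC, a site that earlier results of these data had picked out because genes carrying it were lower in si-circZFR. The direction of the ER genes with the site is therefore no independent support for it. By the GENCODE v44 canonical transcripts, it was present in 2097 of 19548 genes with a 3′UTR (10.7%) and in 7 of the 39 ER genes (17.9%), namely *RNF5*, which holds it at 2 places, *EDEM1*, *SEL1L*, *ATF6*, *VCP*, *HERPUD1* and *SEC61A1*. The sites of the 3 ERAD genes with groups apart are printed, with the 7-mer in capitals and 8 bases on each side, 5′ to 3′ in the sense of the transcript.
RNF5, first site: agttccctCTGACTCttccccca
RNF5, second site: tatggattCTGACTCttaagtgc
EDEM1: tgttttcaCTGACTCattgaaaa
SEL1L: cttgtgaaCTGACTCcttgcact

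On GRCh38 these lie at chr6:32180645-32180667 and chr6:32180716-32180738 (plus strand) for *RNF5*, chr3:5217766-5217788 (plus) for *EDEM1* and chr14:81476234-81476256 (minus) for *SEL1L*, each within 1 exon of the 3′UTR. The 2 sites of *RNF5* lie in a 3′UTR of 467 bases, whereas *EDEM1* and *SEL1L* hold 1 each in 4040 and 5425 bases. All 7 genes had a negative log2FC, from -1.83 to -0.12 with a median of -0.25, and they included all 5 ER genes with both si-circZFR libraries below NC. Of the 31 tested genes without the site, 24 were positive and 7 negative, and the median log2FC was 0.27. Both si-circZFR libraries were higher in 17 and lower in 0, against 28.1% of all genes tested in each direction. Under scaling by library size alone, *HERPUD1* and *SEC61A1* turned positive (0.05 and 0.02), beside the median of all genes of 0.15.

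Over all genes tested with a 3′UTR, 56.0% of the 1181 with the site had a negative log2FC (median -0.05), against 45.9% of the 9267 without it (median 0.04). The ER genes with the site also had longer 3′UTRs, with a median of 2021 bases against 856.5, and the part of this length in the difference was not tested. The site complementary to the seed (bases 2 to 8) of the guide strand of the listed circZFR siRNA, CTTACGT, was found only in *SEL1L* among the 39 (2.56%, against 2.26% of all genes with a 3′UTR). That of its sense strand, CAGCTTG, was found in *CANX*, *SEL1L*, *DERL2*, *UFD1L* and *NPLOC4* (12.8%, against 12.5%), whose median log2FC was 0.09.

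**Figure D3:**
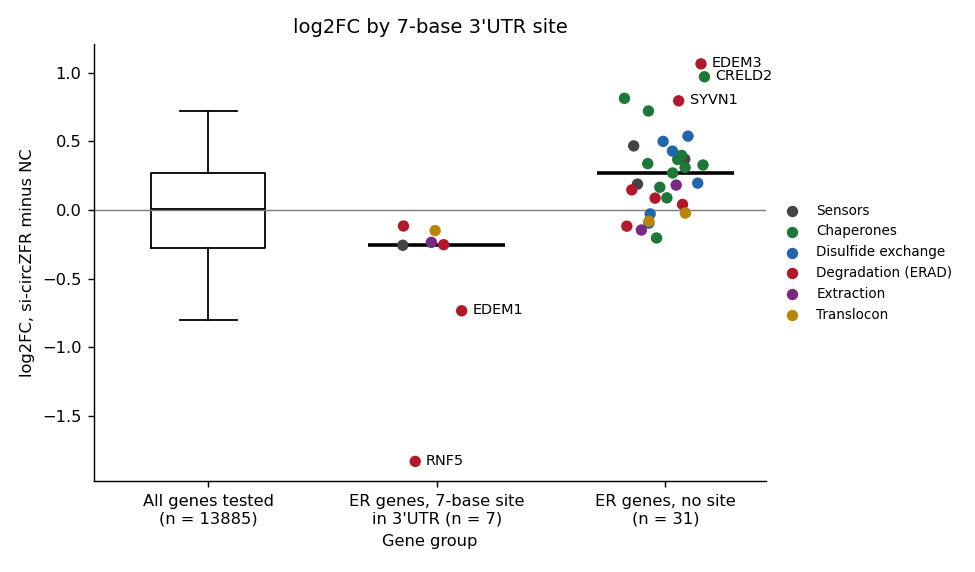
log2FC, si-circZFR minus NC (vertical), of all 13885 genes tested (box from the lower to the upper quartile with the median as a line, whiskers from the 5th to the 95th percentile) and of the ER genes with and without CTGACTC in the 3′UTR (points coloured by role, line at the median, horizontal scatter without meaning). The 7 genes with the site all lie below 0, with *RNF5* at -1.83, and most of the 31 without it lie above 0.

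Other genes of the same system, from 5 lists of 121 genes in all, were examined beside the 39. Of the 120 tested, 0 passed the call with limma (0.0576% of all genes tested did), and their median log2FC was -0.01. At an unadjusted p under 0.05, 14 were lower and 12 were higher, where 11.5% of all genes tested were lower and 10.1% higher. These counts were close to the shares of all genes. Limma-voom called 5 of them, with *ERO1A*, *TRIB3*, *GANAB* and *MLEC* among these, and 304 of all 13885 genes tested. In the PERK arm, 10 of 12 were negative (median -0.20, and -0.06 without NC 2). By library size alone the median was -0.03, beside a median of all genes of 0.15. The exceptions were *ERO1A* (log2FC 1.19, adjusted p = 0.0759), the main ER oxidase and here listed as *ERO1L*, and *TRIB3* (1.23, adjusted p = 0.076), a pseudokinase induced by CHOP. *CHAC1*, a glutathione-degrading target of the same arm, had a log2FC of -0.85 (adjusted p = 0.144).

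In the remaining ATF6 and IRE1 arms, 7 of 13 were positive (median 0.05). The stress-related factor *CREB3L2* had a log2FC of 0.72 (adjusted p = 0.133). Of the subunits of the ERSE-binding NF-Y, *NFYC* had -0.50 (adjusted p = 0.177) and *NFYB* -0.43 (adjusted p = 0.252). The subunit *NFYA* went the other way, with 0.15 (adjusted p = 0.666) and overlapping groups. Of 30 further folding enzymes, 17 were positive (median 0.05). The largest differences were those of 2 genes of N-glycan quality control, *GANAB*, the catalytic subunit of glucosidase II (log2FC 1.57, adjusted p = 0.0661), and *MLEC*, the lectin malectin (-1.24, adjusted p = 0.0728), followed by the thioredoxin-like *TMX3* (0.77, adjusted p = 0.112).

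Of 35 further ERAD genes, 23 were positive (median 0.07). The erlin pair *ERLIN1* and *ERLIN2*, a scaffold for degradation of membrane proteins, had log2FC values of 0.69 (adjusted p = 0.118) and 0.65 (adjusted p = 0.124). The 30 translocation and glycosylation genes had the lowest median (-0.28), with 21 negative and 16 with both si-circZFR libraries below NC (53.3%, against 28.1% of all genes tested). Their median was -0.15 without NC 2 and -0.13 by library size alone, beside a median of all genes of 0.15. Relative to the median of all genes it was -0.277 by library size alone and -0.285 in the main fit. Among them were the signal peptidase subunit *SPCS2* (log2FC -0.88, adjusted p = 0.101), *SRP54* (-0.68, adjusted p = 0.112), which recognises signal peptides, and *SRPR*, its receptor on the ER (-0.58, adjusted p = 0.170). The 12 chaperones and these 30 genes had medians on opposite sides of 0 under all 3 scalings. Of the other genes of the system, 14 tested held CTGACTC in the 3′UTR, among them *MLEC*, *SPCS2* and *SRP54*. Of these 14, 11 were negative (median -0.27), against 50 of 102 without it (median 0.00). The site had been picked out from these same libraries, so this direction is no independent support for it either. The part of 3′UTR length in this difference was not tested.

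**Figure D4:**
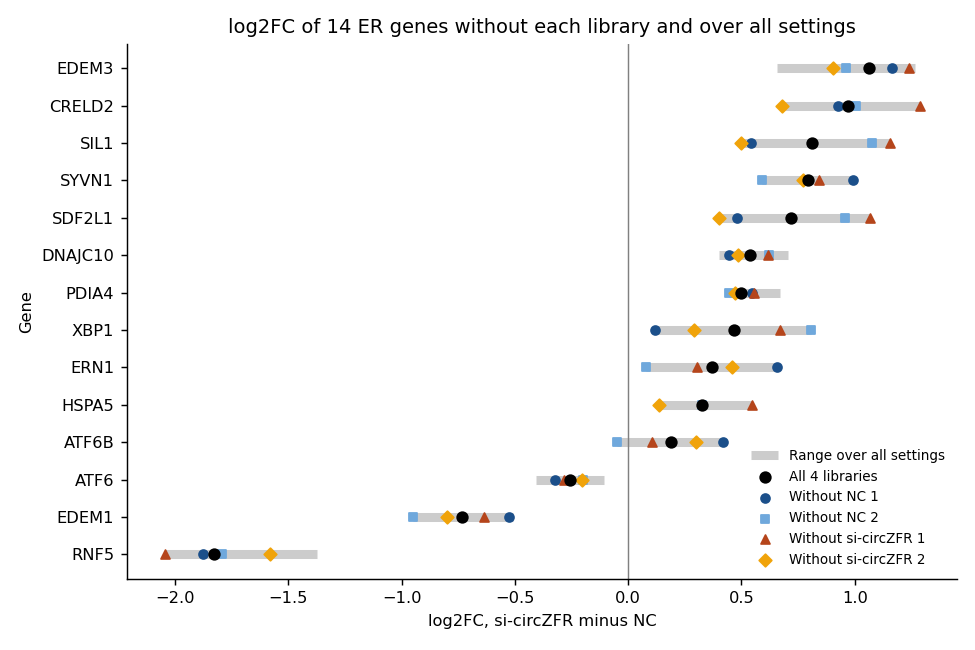
log2FC, si-circZFR minus NC (horizontal), of 14 ER genes, namely the 4 sensors, *HSPA5* and those with an unadjusted p under 0.05 (vertical), in all 4 libraries (black), without each library in turn (coloured symbols) and as the range over the 16 alternative settings (grey bar). *RNF5*, *EDEM1* and *ATF6* stay below 0 and *EDEM3*, *CRELD2* and *SYVN1* above 0 in every setting shown, whereas *ATF6B* crosses 0 without NC 2.

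Over the 16 alternative settings, 20 of the 38 genes had a positive and 5 a negative log2FC in every one, and 13 changed sign in at least 1. Settings that altered only the filter, the replicate block or the prior left the log2FC of a gene unchanged. Only the other settings could thus change a sign. The 5 negative genes were *RNF5*, *EDEM1*, *SEL1L*, *ATF6* and *VCP*. Of the 12 chaperones 10 were positive throughout (*CALR* and *DNAJB9* were not), as were 4 of the 6 disulfide exchange enzymes and *SYVN1*, *EDEM3* and *DERL2* of the ERAD genes. Without si-circZFR 2, the library with the largest share of reads on these genes, the median of the chaperones was 0.23 against 0.33 with all libraries, and that of the disulfide exchange enzymes was 0.29 against 0.31.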

How the data were processed

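The authors sequenced total RNA from 4 libraries on an Ion Proton instrument and deposited 1 RPKM value per gene and library. The study's methods name hg38, batch removal by SVA and edgeR, and the submitters' processing notes name GRCh37. The annotation behind the deposited values is not given in the sources used here. No batch is labelled.

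Reads per gene were recovered as the smallest whole numbers that fit the RPKM values (24271 of 24289 genes above 0; tolerance 2e-04). Multiples of these numbers would fit as well, but the recovered reads added up to 98.35% to 98.62% of each library total, and 95.88% to 97.45% of the small RNA genes of known length were whole.

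Libraries were brought to a common scale with trimmed mean log ratios, after removing 30% of the ratios and 5% of the levels. Limma (3.58.1, R 4.3.3, trended prior) tested log2(scaled RPKM + 1), two-sided, over the 13885 genes that had an RPKM of 1 or more in 2 or more libraries, with Benjamini-Hochberg adjustment over all of them. The fit was also run on simulated data whose spread between libraries was set in advance and not taken from these libraries. That run does not measure how the fit performs on them. Because the deposited values are not counts, limma took the place of the count test in the study's methods. Intervals cover 95%.

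The genes, lists and settings were chosen with earlier results of these data known. Library values are given for the 4 sensors, *HSPA5*, *RNF5*, the 10 ER genes with the largest |log2FC| and any with groups apart and an unadjusted p under 0.05, and log2FC values for the 3 genes with the smallest p in each other list. Values of further genes are given where a count or a comparison turned on them, chosen after they were seen. A few genes that the rule names are left out here. Scaling, filter, pseudocount, prior, length, a replicate block, limma-voom and each library left out were the alternatives. Gene positions and 3′UTRs came from GENCODE v44 (GRCh38), matched by symbol. Python 3.11.15, numpy 2.4.6, pandas 2.3.3 and matplotlib 3.10.9 were used.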

Additional observations from a re-analysis of the deposited data

How the results depend on the processing

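With 2 libraries in each group and 11040050 reads in the smallest, the interval of a single gene spans changes in both directions for 29 of the 38 ER genes tested, and 1 library can decide a call. Leaving out each library in turn, with the lone library assumed to vary like the other group, gave 0 to 2 genes called, a median log2FC of 0.115 to 0.235, and 6 to 12 genes with the si-circZFR libraries lower, where 35.8% to 42.8% of all genes tested were. The calls made without NC 1 were *RNF5* and *EDEM3*. The log2FC of *ATF6B* ran from -0.048 without NC 2 to 0.419 without NC 1.

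The number of ER genes called, 0 in the fit reported, was 2 with RPKM of at least 1 in all 4 libraries, 1 with a CPM (reads scaled to the library total) above 1 in at least 2 libraries, 2 with limma-voom and 2 with limma-voom and that CPM filter, a setting chosen after seeing the data. In all of these the genes were *RNF5* alone or *RNF5* with *EDEM3*. The number of genes called among all tested was 8, and 251, 200, 304 and 367 in these settings, 937 without NC 1 and 0 without each of the other libraries. It was also 2 with a pseudocount of 0.1, 14 with a length correction and 1 without the trend in the prior.

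The replicate numbers do not pair the libraries by design, and same-numbered libraries deviated together only weakly (correlation 0.0694 over 13885 genes). With a replicate block, 1 ER gene was called (*RNF5*, adjusted p = 0.0435), of 63 genes in all.

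When only library size was used for scaling, the median over all genes was 0.150 instead of 0.006 and that of the ER genes was 0.346, with 32 positive and 6 negative values against 24 and 14, and 3 genes with both si-circZFR libraries lower and 22 higher (18.2% and 39.6% of all genes tested). The 2 medians then differed by 0.196. The cause of these changes was not tested.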
